A study of Caenorhabditis elegans with 52 samples.

Results

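Depletion of the piRNA transcription factor TOFU-5 in Caenorhabditis elegans lowered most piRNAs, and 134 piRNAs kept at least 0.75 of their level after 12 h of auxin. They were chosen from the deposited piRNA table by 2 measured values: a mean of at least 5 RPM, the unit in which reads are scaled to the depth of the library, in the TOFU-5 degron strain at 0 h, and a mean at 12 h that was at least 0.75 of the mean at 0 h. Of the 14680 piRNAs of the table, 2036 reached 5 RPM at 0 h, and the 134 stable piRNAs are 6.58% of these. The other 1902 serve as the comparison set. Because the 0 h and 12 h values of the TOFU-5 degron strain chose the 134, those values are described below and not tested.

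The study sequenced small RNAs of whole day 1 adults in 42 libraries, 21 groups of 2 replicates, 22 at steady state and 20 in a depletion course. The course strains carried gfp::aid::tofu-5(how48) and sun-1p::mcherry::tirI, with or without disl-2(how27), and were collected at 0, 2, 4, 6 and 12 h. The labels give 4 mM of the auxin IAA for every course group, 0 h included, and the sun-1 promoter drives TIR1 in the germ line, the tissue in which piRNAs are made. The steady-state groups were a disl-2 isogenic control, disl-2(how27), disl-2(tm5337), henn-1(tm4477), henn-1(tm4477); disl-2(how18), parn-1(tm869), parn-1(tm869); disl-2(tm5337), a paired control of the pup-1 experiment, pup-1(tm1021), pup-1(how20); disl-2(how27) and pup-1(how50); disl-2(tm5337). The pup-1 single and double mutants thus carry different pup-1 alleles, and no control is paired with henn-1 or parn-1 in the labels. In whole animals, fewer germ cells and less piRNA per cell cannot be told apart.

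C. elegans piRNAs are 21U-RNAs, short RNAs of 1 length that are bound by the Piwi protein PRG-1 and that guide silencing of foreign and self transcripts in the germ line. TOFU-5 belongs to the complex that sits upstream of piRNA genes and starts their transcription, so that without it new piRNAs are not made. PARN-1 trims the 3′ ends of piRNA precursors, HENN-1 methylates the finished ends, PUP-1 is a poly(U) polymerase that adds uridines to RNA ends, and DISL-2 is the worm relative of the exoribonuclease DIS3L2, which degrades RNAs with uridine tails. Each piRNA gene is its own small transcription unit, and most lie in 2 broad clusters on chromosome IV.

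The total piRNA level of a library ranged between 18571 and 52383 RPM in the TOFU-5 degron course, between 19568 and 43249 RPM in the disl-2(how27) course, and between 21533 and 294720 RPM at steady state. Library depth ran between 8807176 and 52798564 reads. Replicates of a group differed by more than sampling noise in all 21 groups, and the chi-square of their counts, divided by its degrees of freedom, lay between 1.94 and 33.29. The highest value belonged to henn-1 and the next, 14.02, to pup-1(how20); disl-2(how27), so counts from those groups rest on unlike replicates.

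At 0 h the stable piRNAs were not unusually abundant. Their levels ranged between 5.005 and 147 RPM, with a median of 9.83 RPM beside 11.44 RPM for the other 1902. By the rule, their median ratio of 12 h to 0 h was 0.871, beside 0.332 for the others. The highest ratio was 2.095, and 38 of the 134 were at or above their 0 h level. The ratio reached 0.75 within both replicate numbers taken separately for 90 of the 134.

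The threshold cut through a continuous range. Just inside it stood 21ur-5623 with a ratio of 0.7515, 21ur-1497 with 0.752 and 21ur-4614 with 0.756. Just outside stood 21ur-1615 with 0.7475, 21ur-2932 with 0.7441 and 21ur-1676 with 0.7413. Reads that also match other loci are divided between them in the table, and 44 of the 134 hold such reads. Of these, 6 pairs lie on overlapping stretches of the WBcel235 gene table and have nearly the same level in every library, within 0.1 on the log2 scale, among them 21ur-9424 and 21ur-2686. Each pair may be a single RNA counted under a pair of names.

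The stable piRNAs differed from the rest in germline class, which the rule did not use. Of the piRNAs that the authors' deposited table classes as Spermatogenic, 8 of 728 were stable, which is 1.1%. The share was 8.5% for the Oogenic class, 36 of 422, and 10.2% for piRNAs with no class, 90 of 886. These shares are a description and were not tested. Within the others, the Spermatogenic class also had the lowest median ratio, 0.268, beside 0.399 for the Oogenic class and 0.358 for piRNAs with no class.

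Position on the genome set the stable piRNAs apart less. In the right cluster of chromosome IV 119 of 1854 were stable, 6.4%, and in the left cluster 14 of 156, 9.0%. None of the 25 in the rest of chromosome IV were, and the 1 piRNA of another chromosome that reached 5 RPM, 21ur-10581 on chromosome III, was. Inside annotated coding genes 50 of 679 were stable, 7.4%, and outside them 84 of 1357, 6.2%. By the clone that gives a piRNA gene its sequence name, Y57G11C held 16 stable piRNAs among 154, 10.4%, the highest share of the 4 clones with most piRNAs, where Y73F8A had 6.8%, Y105C5A 5.9% and Y105C5B 4.7%.

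The libraries at 2, 4 and 6 h of the TOFU-5 degron strain took no part in the choice at 12 h, although their ratios use the same 0 h libraries. At 2 h the median ratio of the stable piRNAs was 0.928 and that of the others 0.826. At 4 h the medians were 0.850 and 0.636, and at 6 h 0.755 and 0.459. At 6 h 69 of the 134, 51.5%, stood at or above 0.75 of their 0 h level, beside 89 of 1902 others, 4.7%. The same split was seen in each 6 h library, with medians of 0.810 and 0.554 in replicate 1 and of 0.679 and 0.380 in replicate 2. The stable piRNAs were therefore lower at 6 h than at 12 h by their medians, and the 12 h value is the one that chose them.

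**Figure D1:**
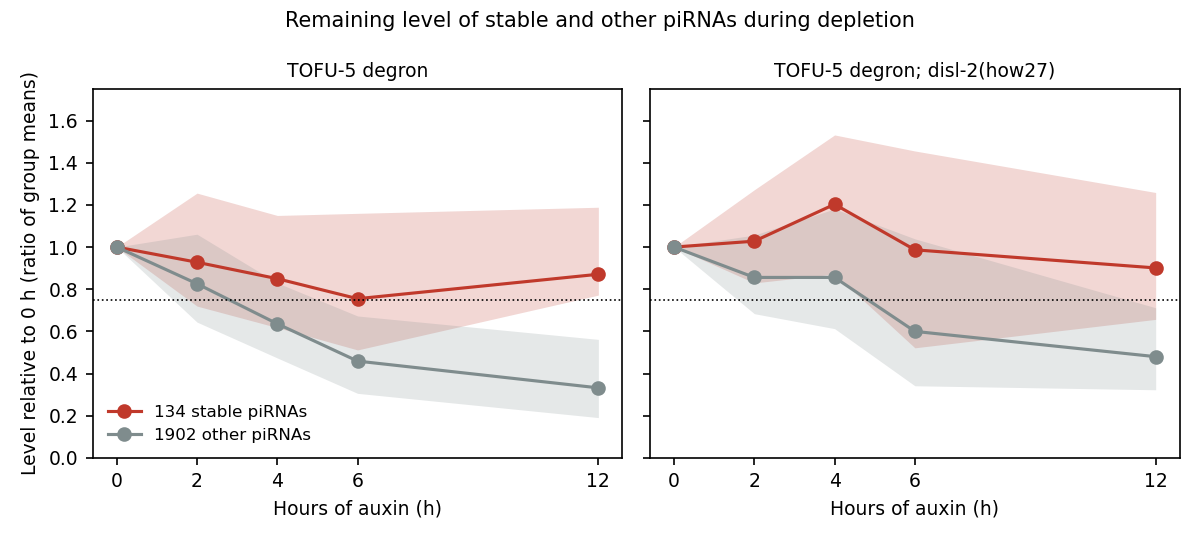
Level relative to 0 h (ratio of group means, vertical) against hours of auxin (horizontal) for the 134 stable and the 1902 other piRNAs in both depletion strains. Points are medians, bands run between the 10th and 90th percentiles, and the dotted line is the ratio of 0.75; the stable piRNAs end at 0.871 in the TOFU-5 degron strain, where the rule chose them, and at 0.901 in the disl-2(how27) strain, where the others end at 0.480.

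Tested as a slope over the 2, 4 and 6 h libraries with limma, 14 of the 134 stable piRNAs fell and 2 rose, where 31.6% of all 4025 piRNAs tested fell and 0.0994% rose. Of the other 1902, 763 fell, 40.1%, and none rose. The median slope of the stable piRNAs was -0.06 on the log2 scale per hour and that of all tested -0.18. Scaling every library to the same median left no call among the stable or any other piRNAs and moved the median slope of all from -0.18 to 0.01, so the counts are those of the unscaled RPM. The stable count of 16 was 0 without replicate 2 of 6 h, 5 without replicate 2 of 2 h and 9 without replicate 2 of 4 h, and 3 with no filter on low piRNAs.

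Several members dipped at 6 h and stood higher again at 12 h. The higher 12 h level follows from the choice of members. The rule kept only piRNAs whose 12 h mean reached the threshold, and 21ur-1551, 21ur-208 and 21ur-2118 were named for their falls over 2 to 6 h. Whether their levels recovered was therefore not tested, and the 12 h values are a description. The level of 21ur-1551 was 18.9 and 19.8 RPM at 0 h, 17.4 and 30.0 RPM at 2 h, 18.2 and 14.4 RPM at 4 h, 8.74 and 5.76 RPM at 6 h and 15.1 and 17.3 RPM at 12 h. Its 6 h libraries were the lowest of the course and did not overlap with those at 2 h, and its 12 h libraries lay below both at 0 h. Over 2 to 6 h it fell by 0.41 per hour on the log2 scale (SE 0.085, limma adjusted p = 0.00814). The call was lost without replicate 2 of 6 h, with an adjusted p of 0.113, and after scaling to equal medians, with 0.185, the highest over all alternatives, whose lowest was 0.00123.

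The Oogenic piRNA 21ur-208, which lies in the gene Y67A10A.7, had 29.6 and 33.0 RPM at 2 h, 26.6 and 26.7 RPM at 4 h, 9.99 and 13.5 RPM at 6 h and 27.9 and 28.4 RPM at 12 h. It too was lowest in both 6 h libraries, and it fell by 0.35 per hour between 2 and 6 h (SE 0.078, limma adjusted p = 0.00946). The adjusted p was 0.106 without replicate 2 of 6 h and 0.322 after scaling, within a range of 0.0025 to 0.322 over the alternatives. The level of 21ur-2118 was 8.70 and 14.1 RPM at 2 h, 3.07 and 5.19 RPM at 4 h, 3.52 and 4.21 RPM at 6 h and 6.35 and 15.2 RPM at 12 h. Its libraries at 4 and 6 h lay below all others of the strain, and its 12 h replicates stood apart from each other. Its slope was -0.35 per hour (SE 0.096, limma adjusted p = 0.015), and the adjusted p was 0.0715 without replicate 2 of 2 h, 0.106 without replicate 2 of 6 h and 0.391 after scaling, in a range of 0.00403 to 0.391.

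The overlapping pair 21ur-9424 and 21ur-2686 held the 2 calls of a rise over these hours. 21ur-2686 had 50.0 and 70.0 RPM at 0 h, 52.2 and 41.2 RPM at 2 h, 39.2 and 45.4 RPM at 4 h, 77.5 and 103 RPM at 6 h and 116 and 135 RPM at 12 h. Both 12 h libraries lay above every earlier one, and both 6 h libraries above those at 2 and 4 h. Its slope over 2 to 6 h was 0.23 per hour (SE 0.079, limma adjusted p = 0.0313), and its reads are divided with other loci. The call was lost in 4 of 12 alternatives, those without replicate 1 or replicate 2 of 6 h among them. For 21ur-9424 these gave adjusted p-values of 0.0843 and 0.300, in a range of 0.0146 to 0.300.

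**Figure D2:**
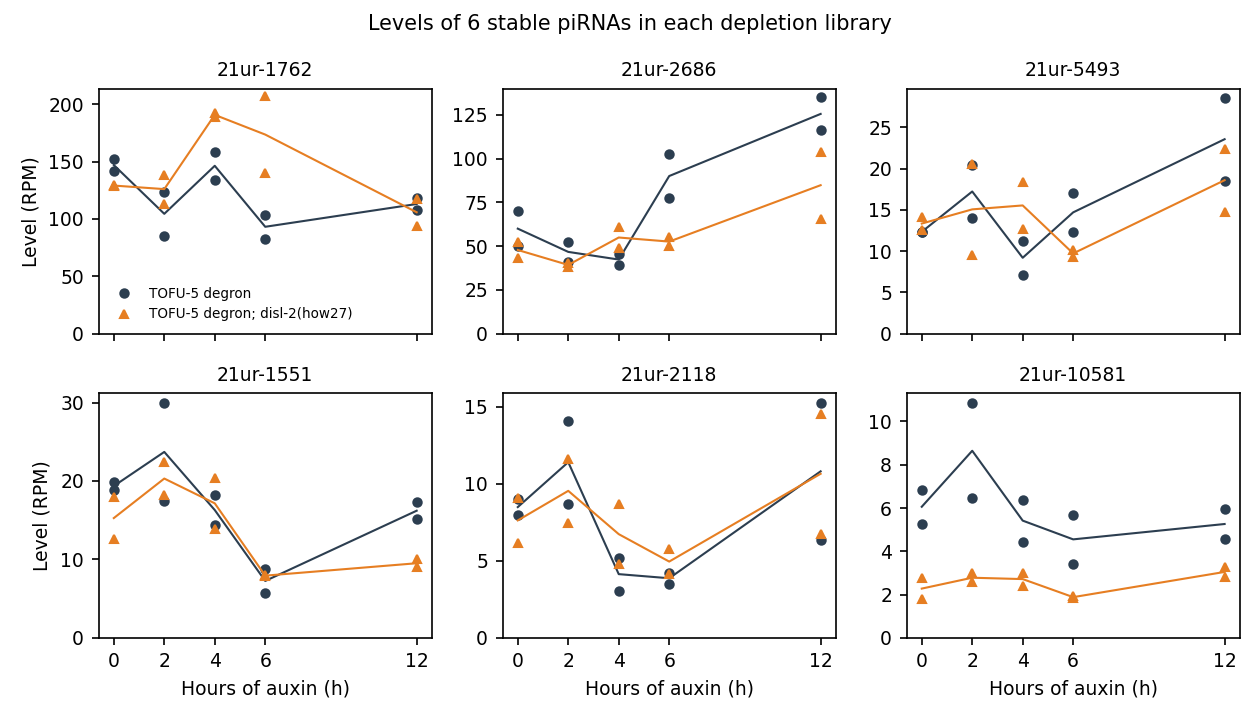
Level in RPM (vertical) of 6 stable piRNAs against hours of auxin (horizontal), with 1 point per library and a line through the group means, for the TOFU-5 degron strain (circles) and the strain that also carries disl-2(how27) (triangles). 21ur-2686 is highest at 12 h in both strains, 21ur-1551 and 21ur-2118 are low at 6 h, and 21ur-10581 is lower in every disl-2(how27) library than in any library of the other strain.

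The disl-2(how27) depletion course shares no library with the rule and shows whether the same piRNAs kept their level in another strain. Relative to its own 0 h, the median ratio of the stable piRNAs was 1.028 at 2 h, 1.203 at 4 h, 0.987 at 6 h and 0.901 at 12 h. The others stood at 0.856, 0.856, 0.600 and 0.480. At 12 h 107 of the 134, 79.9%, were at or above 0.75, beside 142 of 1902 others, 7.5%, and 46 of the 134 were at or above 1. By replicate, 102 of the 134 and 358 of the others, 18.8%, reached 0.75 in replicate 1, and 93 of the 134 and 130 of the others, 6.8%, in replicate 2. Across the 2036 piRNAs at 5 RPM the 12 h ratios of the strains had a Spearman correlation of 0.75, and within the 134 one of 0.33. Both are descriptions over piRNAs that share libraries.

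Over the whole disl-2(how27) course, from 0 to 12 h, 11 of the 134 stable piRNAs fell and 3 rose, by the slope of log2 level on hours in limma. The 3 were 21ur-169 and the overlapping pair 21ur-9424 and 21ur-2686, which may be a single RNA. Among all 4190 tested, 64% fell and 0.143% rose. Of the other 1902, 1500 fell, 78.9%, and none rose. The median slope was -0.01 per hour for the stable piRNAs and -0.07 for all. Scaled to equal medians, which moved the median slope of all from -0.07 to 0.001, the split among the stable piRNAs turned to 22 that rose and 0 that fell, where 1.72% of all tested rose and 1.17% fell under that scaling. The 14 calls became 9 without replicate 1 of 12 h and 7 without replicate 2 of 12 h, and 7 with no filter.

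**Figure D3:**
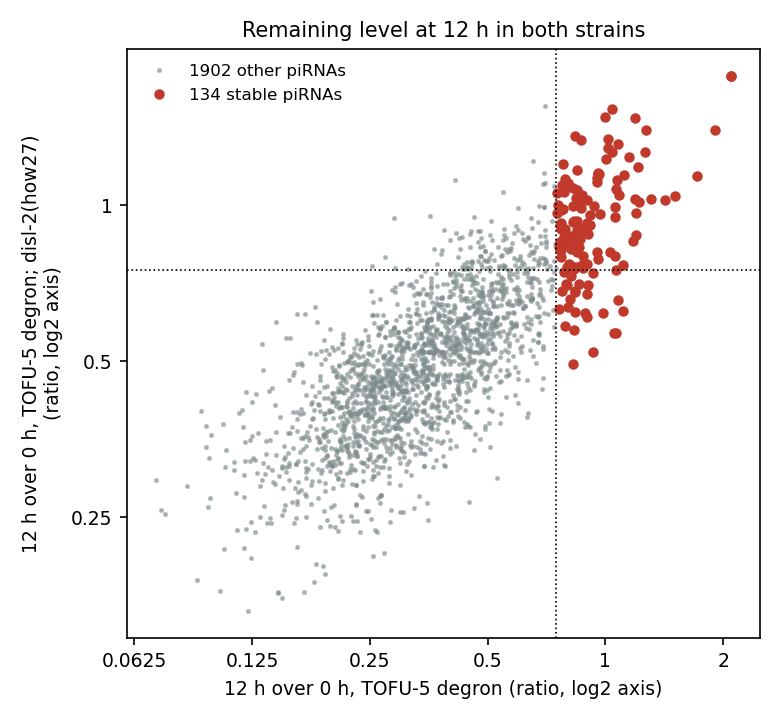
Ratio of the 12 h to the 0 h level in the TOFU-5 degron strain (horizontal) and in the strain that also carries disl-2(how27) (vertical), both on log2 axes, with 1 point per piRNA; dotted lines mark 0.75. All 134 stable piRNAs lie right of the vertical line by the rule, 107 of them also lie at or above the horizontal line, and 142 of the 1902 others do.

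In the disl-2(how27) strain 21ur-2686 had 52.5 and 43.1 RPM at 0 h, 38.0 and 40.5 RPM at 2 h, 49.1 and 60.7 RPM at 4 h, 49.9 and 55.2 RPM at 6 h and 65.8 and 104 RPM at 12 h. Both 12 h libraries lay above all earlier ones. It rose by 0.08 per hour (SE 0.022, limma adjusted p = 0.00613). Without replicate 2 of 12 h its adjusted p was 0.107, the highest of a range that began at 0.00427. The Oogenic piRNA 21ur-169, in the gene R05A10.2, had 5.18 and 5.82 RPM at 0 h and 5.99 and 10.9 RPM at 12 h, and its slope of 0.06 per hour (SE 0.023, limma adjusted p = 0.0415) was lost in 8 of 16 alternatives. Without replicate 2 of 12 h, its highest library, the adjusted p was 0.397, in a range of 0.0148 to 0.397.

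Among those that fell in the disl-2(how27) strain was 21ur-1551, which also fell over 2 to 6 h in the other strain. It had 12.6 and 17.9 RPM at 0 h, 22.4 and 18.2 RPM at 2 h, 13.9 and 20.4 RPM at 4 h, 7.88 and 7.98 RPM at 6 h and 10.03 and 8.99 RPM at 12 h. Its libraries at 6 and 12 h lay below all earlier ones, without the higher 12 h value that the rule required in the other strain. It fell by 0.08 per hour (SE 0.028, limma adjusted p = 0.0158), and the call was lost without a filter on low piRNAs, with an adjusted p of 0.0517, and after scaling, with 0.858, in a range of 0.00854 to 0.858. The Oogenic 21ur-6656 had 7.41 and 13.8 RPM at 0 h and 4.84 and 5.62 RPM at 12 h, a ratio of 0.493 where the TOFU-5 degron strain had 0.826. It fell by 0.08 per hour (SE 0.025, limma adjusted p = 0.0113), and the adjusted p was 0.0589 without replicate 1 of 12 h and 0.876 after scaling, in a range of 0.00549 to 0.876.

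By class, the 90 stable piRNAs without a class had a median 12 h ratio of 0.926 in the disl-2(how27) strain, the 36 Oogenic ones 0.854 and the 8 Spermatogenic ones 0.751. At or above 0.75 were 75 of 90, 28 of 36 and 4 of 8. Among the others the medians were 0.488, 0.533 and 0.451, so the stable piRNAs stood higher within each class.

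The most abundant stable piRNA was 21ur-1762, in the gene Y40H7A.4. In the TOFU-5 degron strain it had 142 and 153 RPM at 0 h and 118 and 108 RPM at 12 h. In the disl-2(how27) strain it had 129 and 129 RPM at 0 h, 189 and 192 RPM at 4 h and 118 and 94.0 RPM at 12 h. Its 12 h ratios were 0.769 and 0.819. The next ones, 21ur-1404, which shares reads, and 21ur-1949, had ratios of 0.785 and 0.868, and of 0.830 and 0.859. Of the 10 most abundant, 21ur-4983 was lowest in the disl-2(how27) strain, with 0.732. The high ratios were found at lower levels too: 21ur-5493 had 12.3 and 12.3 RPM at 0 h and 18.6 and 28.6 RPM at 12 h, a ratio of 1.911, and 1.394 in the disl-2(how27) strain.

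Within the depletion hours 2 to 6, the disl-2(how27) strain was compared with the TOFU-5 degron strain. Of the 134 stable piRNAs 1 was lower in the disl-2(how27) strain and 0 were higher, where 0.0485% of 4122 tested were lower and 0.121% were higher. By limma, 21 of the 134 had an unadjusted p under 0.05, 15.7%, beside 13% of all tested. The median difference was 0.08 on the log2 scale for the stable piRNAs and 0.05 for all. The lower one was 21ur-10581 on chromosome III, with 6.44 and 10.8, 4.44 and 6.39, and 3.41 and 5.70 RPM at 2, 4 and 6 h in the TOFU-5 degron strain, and 2.98 and 2.58, 3.01 and 2.42, and 1.94 and 1.83 RPM with disl-2(how27). The libraries of the strains did not overlap. The difference was -1.12 on the log2 scale (SE 0.179, limma adjusted p = 0.00319), and the call held in each alternative that gave a value for it, with adjusted p-values between 0.000334 and 0.0217. Its 0 h levels already differed, with 5.28 and 6.84 RPM against 1.77 and 2.78 RPM. At steady state 21ur-10581 was not called in disl-2(how27) against the isogenic control, and those libraries overlapped. The steady-state difference was 0.03 on the log2 scale (SE 0.309, limma adjusted p = 0.945). Without replicate 2 of 2 h in the TOFU-5 degron strain, 2 of the 134 were called higher and 1 lower.

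At 0 h in the TOFU-5 degron strain the stable piRNAs held 5.22% and 4.57% of the total piRNA level. At 12 h their share was 11.2% and 12.1%, a rise that follows from the rule, which used these libraries. In the disl-2(how27) strain, whose libraries the rule did not use, the share was 5.96% and 4.48% at 0 h. At 12 h it was 8.23% and 9.62%, above both 0 h libraries. At steady state it was 3.98% and 4.38% in the disl-2 isogenic control and 4.78% and 4.67% in the paired control of the pup-1 experiment.

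**Figure D4:**
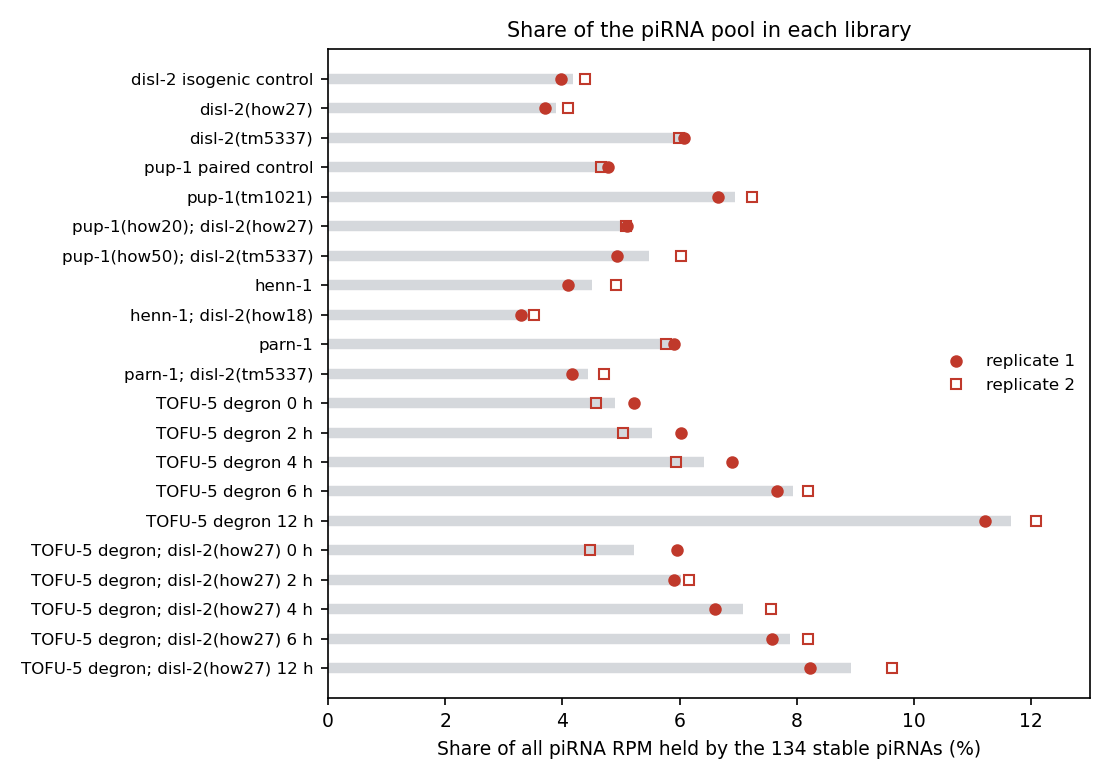
Share of the total piRNA level (RPM) of each library held by the 134 stable piRNAs (horizontal, %), by group (vertical), with 1 symbol per library and a bar to the mean of both. The share is highest at 12 h in the TOFU-5 degron strain, 11.2% and 12.1%, where the rule chose the piRNAs. It is lowest in henn-1(tm4477); disl-2(how18), 3.30% and 3.52%.

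In steady-state disl-2(how27) the stable piRNAs moved much as the rest did. Of the 134, 20 rose and 0 fell against the isogenic control, by limma, where 20.6% of the 5618 tested rose and 0.0356% fell. Their median difference was 0.34 on the log2 scale, beside 0.47 for all, and 24.6% had an unadjusted p under 0.05, beside 38.7% of all. Scaling to equal medians, which moved the median of all from 0.47 to -0.05, turned the split to 0 that rose and 4 that fell, where 0.765% of all tested rose and 0.926% fell under that scaling. The count was 0 without disl-2(how27) replicate 1, 4 without control replicate 1, 6 without disl-2(how27) replicate 2, 8 without control replicate 2 and 0 with no filter.

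The largest rise was in 21ur-5522, with 4.35 and 6.80 RPM in the control and 16.1 and 12.01 RPM in disl-2(how27). The libraries did not overlap, and the difference was 1.28 on the log2 scale (SE 0.274, limma adjusted p = 0.0021). The call was lost in 4 of 12 alternatives: its adjusted p was 0.106 with no filter, 0.0573 after scaling, 0.0514 without control replicate 1 and 0.272 without disl-2(how27) replicate 1, the end of a range that began at 0.000504. The abundant 21ur-4983, in the gene Y51H4A.1, had 143 and 170.4 RPM in the control and 307 and 262 RPM in disl-2(how27), again with no overlap. It rose by 0.86 (SE 0.196, limma adjusted p = 0.00327). It lost the call with no filter, after scaling, and without disl-2(how27) replicate 1, with adjusted p-values of 0.106, 0.525 and 0.272, in a range of 0.00299 to 0.525.

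With disl-2(tm5337), which shares the control libraries with disl-2(how27), the stable piRNAs split. Of the 134, 41 rose and 27 fell by limma, where 13.5% of the 5618 tested rose and 26.9% fell. Among the other 1902, 171 rose, 8.99%, and 819 fell, 43.1%. The median difference was 0.25 on the log2 scale for the stable piRNAs, beside -0.47 for the others and -0.19 for all. Their share of the total level was 6.07% and 5.997%, above both controls. The split was 27 that rose and 30 that fell without disl-2(tm5337) replicate 1, where the stable median was -0.03.

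The strongest rise was in the Oogenic 21ur-2194, in the nuclear hormone receptor gene nhr-5, with 4.90 and 4.13 RPM in the control and 24.8 and 25.0 RPM in disl-2(tm5337). In disl-2(how27) it had 5.75 and 7.12 RPM. The rise in disl-2(tm5337) was 2.34 on the log2 scale (SE 0.269, limma adjusted p = 1.64e-10). 21ur-4985 had 9.12 and 8.26 RPM in the control, 49.5 and 34.2 RPM in disl-2(tm5337) and 11.7 and 13.4 RPM in disl-2(how27), a rise of 2.18 in disl-2(tm5337) (SE 0.252, limma adjusted p = 1.75e-10). The libraries of disl-2(tm5337) stood above all control and disl-2(how27) libraries for both.

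The strongest fall was in the Oogenic 21ur-326, in the gene atln-2, with 14.3 and 23.6 RPM in the control, 1.695 and 1.51 RPM in disl-2(tm5337) and 25.9 and 23.0 RPM in disl-2(how27). It fell by 3.17 on the log2 scale in disl-2(tm5337) (SE 0.274, limma adjusted p = 5.96e-15). The Oogenic 21ur-1956, which shares reads, had 6.83 and 9.65 RPM in the control and 1.30 and 1.06 RPM in disl-2(tm5337). It fell by 2.36 (SE 0.300, limma adjusted p = 3.13e-09). These calls of 21ur-2194, 21ur-4985, 21ur-326 and 21ur-1956 held in each of the 12 alternatives.

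Among the most abundant, 21ur-1949 had 185 and 129.6 RPM in the control and 249 and 249 RPM in disl-2(tm5337), a rise of 0.68 (SE 0.198, limma adjusted p = 0.00433). The call was lost with no filter, with an adjusted p of 0.0844, and without control replicate 2, with 0.0995, in a range of 6.79e-05 to 0.0995. 21ur-1569 had 63.2 and 79.2 RPM in the control and 48.6 and 29.0 RPM in disl-2(tm5337). It fell by 0.90 (SE 0.224, limma adjusted p = 0.000894). Without disl-2(tm5337) replicate 2 its adjusted p was 0.0908, in a range of 0.000166 to 0.0908.

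In the henn-1 background, where piRNA ends lack methylation, levels were high in both sets. The median level of the stable piRNAs was 57.8 RPM in henn-1(tm4477), beside 46.9 RPM for the others. In the disl-2 isogenic control, which the labels do not pair with henn-1, these medians were 13.4 and 17.3 RPM. Adding disl-2(how18) left 34 of the 134 lower and 8 higher by limma, where 9.99% of the 8769 tested fell and 17.7% rose. By class, 5.56% of the Oogenic members rose, beside 7.77% of the other Oogenic ones. Without a class the shares that rose were 5.56% and 11.7%. In the Spermatogenic class 1 of 8 members rose, beside 17.5% of the others. Of the Oogenic members 27.8% fell, beside 20.2% of the other Oogenic ones. Without a class the shares that fell were 25.6% and 12.8%. In the Spermatogenic class 1 of 8 members fell, beside 3.62% of the others. The median difference was -0.43 on the log2 scale for the stable piRNAs and 0.12 for all, and the stable median level was 42.9 RPM. The 42 calls were 15 without replicate 1 of the double mutant and 10 without its replicate 2. They were 99 and 74 when replicate 1 or replicate 2 of henn-1 was dropped, with more falls than rises each time.

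21ur-5522, which rose in disl-2(how27), had 65.4 and 53.3 RPM in henn-1 and 13.8 and 8.55 RPM in henn-1; disl-2. It fell by 2.39 on the log2 scale (SE 0.311, limma adjusted p = 0.012). The abundant 21ur-1404, which shares reads, had 327 and 866 RPM in henn-1 and 112 and 109 RPM in the double mutant. It fell by 2.26 (SE 0.442, limma adjusted p = 0.0165). The henn-1 replicates of 21ur-1404 differed more than its double mutant replicates, yet both lay above them. In the other direction 21ur-4934, in the gene uroc-1, had 87.5 and 22.1 RPM in henn-1 and 214 and 302 RPM in the double mutant, a rise of 2.52 (SE 0.579, limma adjusted p = 0.0233). These 3 calls held in each of the 10 alternatives.

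The most abundant, 21ur-1762, had 597 and 545 RPM in henn-1 and 222 and 183 RPM in henn-1; disl-2. It fell by 1.497 (SE 0.267, limma adjusted p = 0.0145). Its adjusted p was 0.083 without henn-1; disl-2 replicate 1 and 0.176 without replicate 2, in a range of 1.16e-15 to 0.176.

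In parn-1, where precursors are left untrimmed, piRNA levels were low in all sets. The median level was 5.87 RPM for the stable piRNAs and 3.27 RPM for the others in parn-1(tm869). The others were higher in the disl-2 isogenic control, at 17.3 against 13.4 RPM, and close to the stable ones in the paired control of the pup-1 experiment, at 18.7 against 19.1 RPM. Of the 134, 21 did not reach a mean of 1 RPM and were not tested. Adding disl-2(tm5337) left 35 of 113 lower and 7 higher by limma, where 10% of the 4039 tested fell and 24.5% rose. By class, 6.25% of the Oogenic members rose, beside 7.14% of the other Oogenic ones. Without a class the shares that rose were 3.85% and 17.6%. Only 3 Spermatogenic members were tested, of which 2 rose, beside 40.6% of the other Spermatogenic ones. The median difference was -0.37 for the 113 and 0.22 for all tested, and the median level of the 134 was 4.45 RPM in the double mutant. The 42 calls were 11 without parn-1 replicate 1, 25 without parn-1 replicate 2 and 25 without parn-1; disl-2 replicate 1. With a mean of at least 5 RPM as the filter they were 20, of which 17 fell. With no filter they were 0, as were those of all piRNAs then tested.

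21ur-1569 had 36.9 and 28.3 RPM in parn-1 and 7.49 and 13.9 RPM in parn-1; disl-2. It fell by 1.62 on the log2 scale (SE 0.263, limma adjusted p = 8.67e-08). 21ur-5959, which shares reads and lies in the fatty acid elongase gene elo-5, had 0.474 and 0.793 RPM in parn-1 and 2.99 and 2.39 RPM in the double mutant, a rise of 1.501 (SE 0.318, limma adjusted p = 5.39e-05). The Spermatogenic 21ur-5745 had 0.903 and 0.674 RPM in parn-1 and 3.67 and 2.84 RPM in the double mutant, a rise of 1.54 (SE 0.313, limma adjusted p = 2.41e-05). No libraries overlapped for these 3. Their calls were lost with no filter, at adjusted p-values of 0.0934 for 21ur-1569 and 0.0899 for 21ur-5959 and 21ur-5745, and held in the other alternatives, where the lowest were 4.66e-14, 2.18e-05 and 1.65e-05.

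The henn-1 and parn-1 experiments share no library. Of the 34 stable piRNAs that fell with disl-2 in henn-1 and the 35 that fell with disl-2 in parn-1, 9 were the same, 26.5% and 25.7% of the lists. Among the 113 members tested in both, 28.1% of those that fell in henn-1 also fell in parn-1, beside 31% of all 113, so the shared falls were no more than the share that fell. Over all 3947 piRNAs tested in both, these shares were 17.4% and 10.1%. The shared falls of members included the abundant 21ur-1404 and 21ur-4359. Of the 8 and 7 that rose, 1 was the same, 21ur-5959. Only 3 of the 8 were tested in parn-1, so the shared share was 33.3%, beside 6.19% of the 113 that rose there. Over all piRNAs tested in both, the shares for rises were 41.7% and 24.1%. In parn-1; disl-2, 21ur-1404 had 43.3 and 37.7 RPM against 66.5 and 50.1 RPM in parn-1. It fell by 0.51 (SE 0.189, limma adjusted p = 0.0242), and the call was lost in 5 of 10 alternatives. Those without parn-1 replicate 1 or replicate 2 gave 0.477 and 0.0535, in a range of 0.00575 to 0.477.

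**Figure D5:**
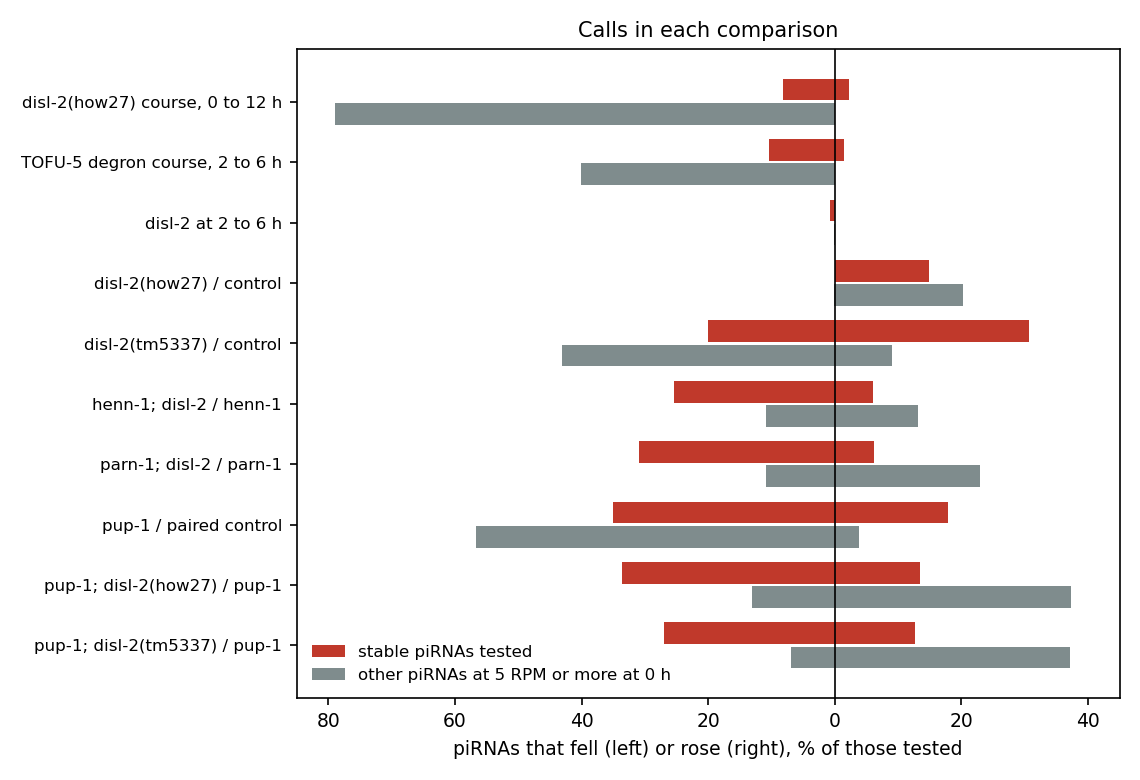
Share of the stable piRNAs tested and of the other piRNAs at 5 RPM or more (horizontal, % of those tested) that fell (bars to the left) or rose (bars to the right) in each comparison (vertical), with no scaling between libraries. In the disl-2(how27) course 8.21% of the stable piRNAs and 78.9% of the others fell; in parn-1; disl-2 against parn-1 31.0% and 10.9% fell.

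Loss of the poly(U) polymerase PUP-1 lowered 47 of the 134 stable piRNAs and raised 24, by limma in pup-1(tm1021) against its paired control. Among all 5120 tested, 53.3% fell and 4.77% rose. Of the other 1902, 1077 fell, 56.6%, and 74 rose, 3.89%. The median difference was -0.36 for the stable piRNAs and -0.78 for all. Scaling to equal medians moved the median of all to -0.03 and turned the stable split to 52 that rose and 20 that fell, where 20.9% of all tested rose and 21.8% fell under that scaling. Without pup-1(tm1021) replicate 2, the 71 calls were 47, of which 28 fell.

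21ur-1956, which shares reads, had 26.8 and 31.7 RPM in the paired control and 0.561 and 0.386 RPM in pup-1(tm1021). It fell by 4.93 on the log2 scale (SE 0.491, limma adjusted p = 1.77e-08). 21ur-326 had 33.7 and 34.4 RPM in the control and 1.90 and 1.25 RPM in pup-1. It fell by 4.07 (SE 0.355, limma adjusted p = 3.52e-09). Both are the piRNAs that were also low in disl-2(tm5337). 21ur-4985, high in disl-2(tm5337), had 5.50 and 5.26 RPM in the paired control and 19.9 and 22.0 RPM in pup-1, a rise of 1.87 (SE 0.305, limma adjusted p = 1.17e-05). The libraries of these 3 did not overlap, and their calls held in each of the 14 alternatives.

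Both pup-1; disl-2 double mutants were compared with the same pup-1(tm1021) libraries, so their counts are not independent of each other. In pup-1(how20); disl-2(how27), 45 of the 134 stable piRNAs fell and 18 rose, where 16.7% of 5120 fell and 25.4% rose, and 709 of the other 1902 rose, 37.3%. In pup-1(how50); disl-2(tm5337), 36 fell and 17 rose, where 9.57% fell and 23.8% rose, and 708 others rose, 37.2%. The median differences were -0.40 and -0.12 for the stable piRNAs, beside 0.09 and 0.19 for all. Without pup-1(tm1021) replicate 1 the 63 calls with disl-2(how27) were 40, and the 53 with disl-2(tm5337) were 22, of which 12 rose and 10 fell. For disl-2(tm5337) the count was also 29 without pup-1(tm1021) replicate 2, 31 without replicate 1 of the double mutant and 23 with no filter.

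21ur-1956 had 7.35 and 63.6 RPM in pup-1(how20); disl-2(how27) and 46.4 and 37.3 RPM in pup-1(how50); disl-2(tm5337). Against the pup-1 level of under 1 RPM it rose by 4.53 (SE 0.491, limma adjusted p = 1.46e-07) and 5.44 (SE 0.491, limma adjusted p = 1.77e-08). The replicates with disl-2(how27) stood far apart, yet all 4 double mutant libraries lay above both of pup-1. 21ur-6656 went the other way. It had 29.2 and 22.8 RPM in the paired control, 21.9 and 17.9 RPM in pup-1, 5.05 and 4.70 RPM with disl-2(how27) and 7.35 and 6.37 RPM with disl-2(tm5337). It fell by 1.92 (SE 0.286, limma adjusted p = 9.34e-06) and 1.47 (SE 0.286, limma adjusted p = 0.00041). These calls held in each of the 14 alternatives.

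The abundant 21ur-4983 had 86.7 and 107 RPM in the paired control and 53.2 and 29.9 RPM in pup-1. With disl-2 added it had 141 and 182 RPM for how27 and 227 and 129 RPM for tm5337, above pup-1 in all 4 libraries. It rose by 2.00 (SE 0.301, limma adjusted p = 1.08e-05) and 2.09 (SE 0.301, limma adjusted p = 1.49e-05). In pup-1 itself it fell by 1.26 (SE 0.301, limma adjusted p = 0.000862), and that call was lost after scaling, with an adjusted p of 0.118, and without pup-1(tm1021) replicate 2, with 0.0533, in a range of 2.02e-06 to 0.118.

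By class, 19 of the 36 Oogenic stable piRNAs fell in pup-1(how20); disl-2(how27), 52.8%, and 17 of 36 in pup-1(how50); disl-2(tm5337), 47.2%. Among the other piRNAs 24.4% and 12.2% of the Oogenic class fell. Of the 90 stable piRNAs without a class 27.8% and 20% fell, beside 17% and 8.79% of the others without one. The Spermatogenic class had the smallest shares that fell among the stable piRNAs, 1 of 8 each, and among the others, 2.78% and 2.22%, so the order of the classes was the same in both sets. In disl-2(tm5337) alone 14 of 36 Oogenic stable piRNAs rose, 38.9%, and 7 fell, 19.4%, beside 11.7% and 39.1% of the other Oogenic ones. Of the stable piRNAs without a class 27.8% rose and 22.2% fell, beside 9.55% and 43.1% of the others without one. In parn-1; disl-2(tm5337) 10 of the 32 Oogenic stable piRNAs tested fell, 31.2%, beside 21.2% of the other Oogenic ones. The gap was wider without a class, at 32.1% beside 12.9%.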

How the data were processed

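The authors sequenced small RNA after treating it with the phosphatase PIR-1, per the labels' protocols. Trim Galore and Bowtie are named in the submitters' processing notes, with no version, and the genome build is not given in the sources used here. The deposited values are in RPM: per the labels, the authors divided piRNA reads by the depth of each library. One piRNA had more than 1 row and was joined, which left 14680. Per library, 85.8% to 88.2% of values were whole reads (within 0.01 read) and the rest were reads divided between loci, so no count test was made. The steps between values put the depth at 8807176 to 52798564 reads. For a level of 0, up to 3 reads are possible, 0.0568 to 0.341 RPM, counting error only.

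Log2(RPM + 0.5), a scale that understates changes of low piRNAs, was fitted with limma 3.58.1 under R 4.3.3. A piRNA was tested where its mean over the fitted libraries reached 1 RPM. Adjusted p-values are Benjamini-Hochberg values over every piRNA tested. "Rose" and "fell" are calls under 0.05, and a slope is the change of the log2 level per hour. Libraries were not rescaled. The isogenic control was fitted together with disl-2(how27) and disl-2(tm5337), and the 4 groups of the pup-1 experiment together. Nothing in the labels ties replicates to separate cultures, so a p-value covers only the spread between the samples at hand, which may be technical. Most of that spread is borrowed across piRNAs, with 1830 prior and 2 residual degrees of freedom for parn-1 and with 62.6 and 3 for the disl-2 alleles. The fits were run on simulated data with added effects and independent noise at the fitted spread. Such data hold no shifts of whole libraries and no unlike replicates. That run therefore cannot show whether the calls given here are sound. Other settings tried were pseudocounts of 0.1 and 2, the filter left out or raised to 5 RPM, equal medians, a replicate block, and dropping each library in turn.

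Members and lists were chosen with earlier results of these data known. Named are the 10 most abundant members, the 5 highest ratios, those next to the threshold, and up to 3 rises and 3 falls per comparison with libraries that do not overlap; the text gives a part. Chromosome, cluster and host gene come from the WBcel235 gene table, matched by identifier for all 14680, and classes from the deposited table. Sequences were not used here. The 4 mRNA samples and 6 samples of further poly(U) polymerase mutants, 10 in all, were not analysed here.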

Additional observations from a re-analysis of the deposited data

Results flagged for a closer look

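In 13 of the stable piRNAs that the naming rule covers, disl-2(tm5337) moved levels in opposite directions in the wild-type background, against the isogenic control, and in the pup-1 background, with calls on both sides and no overlap of libraries; the difference between backgrounds was not tested, and the pup-1 allele differs between the single and the double mutant. The change in pup-1 minus that in the wild-type background, on the log2 scale, was 7.80 for 21ur-1956, 5.33 for 21ur-326, 4.11 for 21ur-5143, 3.90 for 21ur-3846, 3.16 for 21ur-2118, 3.01 for 21ur-4983, 2.37 for 21ur-4895, 2.26 for 21ur-10581 and 1.78 for both 21ur-9424 and 21ur-2686, which fell in disl-2(tm5337) and rose in the double mutant relative to pup-1(tm1021). A rise relative to pup-1 does not mean a level above the paired control: 21ur-326 had 33.7 and 34.4 RPM in that control, 1.90 and 1.25 RPM in pup-1 and 10.7 and 7.05 RPM in the double mutant. The same difference was -3.79 for 21ur-2194, -3.35 for 21ur-6656 and -3.19 for 21ur-4985, which went the other way. Over all 134 members, 29 had opposite calls, 21.6%, beside 26.2% of the other 1902 and 17% of all piRNAs tested in both.

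Between the wild-type and the parn-1 backgrounds, 3 named members went opposite ways with disl-2(tm5337), and again the difference was not tested. The change in parn-1 minus that in the wild-type background was 3.42 for 21ur-3846, -1.15 for 21ur-1404 and -1.26 for 21ur-4359. Of 113 members tested in both, 10 had opposite calls, 8.85%, beside 13.5% of the others and 10.2% of all.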

How the results depend on the processing

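The counts of stable piRNAs called kept their direction and stayed within 1.5 times under a pseudocount of 0.1 or 2 RPM in all 10 comparisons. With no filter they were 7 of 14 in the disl-2(how27) course, 3 of 16 in the TOFU-5 degron course over 2 to 6 h, 0 of 20 in disl-2(how27), 0 of 42 in parn-1; disl-2 and 23 of 53 in pup-1(how50); disl-2(tm5337). With a mean of at least 5 RPM they were 20 in parn-1; disl-2 and 0 of 1 for disl-2 at 2 to 6 h, where 21ur-10581 was no longer tested. Scaling to equal medians turned the balance of rises and falls in the disl-2(how27) course, with 22 calls, in disl-2(how27), with 4, and in pup-1, with 72, and left 0 over 2 to 6 h. It also turned 21ur-9424 and 21ur-2686 in pup-1, at 0.078 and 0.093 on the log2 scale. The causes were not tested.

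Leaving out 1 library gave 7 to 16 calls in the disl-2(how27) course, 0 to 24 over 2 to 6 h, 1 to 3 for disl-2 at 2 to 6 h, 0 to 29 in disl-2(how27), 50 to 71 in disl-2(tm5337), 10 to 99 in henn-1; disl-2, 11 to 52 in parn-1; disl-2, 47 to 81 in pup-1, 40 to 67 in pup-1(how20); disl-2(how27) and 22 to 63 in pup-1(how50); disl-2(tm5337). The balance turned without TOFU-5 degron 2 h replicate 2 (3 calls for disl-2 at 2 to 6 h), disl-2(tm5337) replicate 1 (57) and pup-1(tm1021) replicate 1 (22). A single library left in a group is assumed to vary like the other groups.

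The labels do not say whether replicate numbers pair the samples. Deviations of same-numbered libraries correlated over piRNAs between -0.32 and 0.28. Such a correlation leaves out a shift common to a whole library, so it cannot settle the pairing. With the replicate number as a block the counts were 11, 17, 1, 26, 75, 53, 30, 75, 65 and 56 in the order above, each within 1.5 times. Of 133 calls of named piRNAs, 54 held in every alternative run, and the block ended 4. Members near 5 RPM at 0 h rest on fewer reads than abundant ones. The ratio of 12 h to 0 h reached 0.75 in both replicate numbers for only 90 of the 134, so single ratios next to 0.75 are not firm.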
